A study of Mus musculus with 12 samples.

Results

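The tumour necrosis factor (TNF) superfamily consists of trimeric ligands, most of them made as membrane proteins and some of them shed, and of the receptors that bind them. Receptors with a death domain, such as Fas and Tnfrsf1a, can start apoptosis or necroptosis, while most others recruit TRAF adaptors and activate NF-kB. In the gut wall these genes are known from lymphocytes, macrophages, endothelium and stromal cells. The members described here are all genes of the count table whose symbol begins with Tnfsf or Tnfrsf and a digit, together with Tnf, Lta, Ltb, Ltbr, Fas, Fasl, Cd40, Cd40lg, Cd27, Cd70, Eda and Edar. They came to 44 of 52550 genes, of which 18 code for ligands and 25 for receptors, and 1 is an antisense RNA gene, Tnfsf13os. Of these, 37 passed the low-count filter and were tested: 13 ligand genes, 23 receptor genes and the antisense gene. Cd40lg, Cd70, Fasl and Tnfsf4, which code for ligands known mainly from lymphocytes and antigen-presenting cells, had under 10 counts in every library and were not read, and Cd40lg had 0 counts in all 12. Lta, which codes for lymphotoxin alpha, and Tnfrsf13c and Tnfrsf17, which code for receptors of BAFF and APRIL on B cells, were read but did not pass the filter.

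The study sequenced RNA of 12 mouse libraries, 3 in each of 4 groups, from wild-type animals. Primary cells of the intestinal muscle layers were cultured for 28 days under one of 3 conditions. M scaffold cells grew on electrospun gelatin in M medium, an Advanced DMEM/F-12 medium with N2, B27, N-acetylcysteine, HEPES, GlutaMAX, 100 ng/ml of the BMP antagonist Noggin, 1 µg/ml of the Wnt agonist R-spondin1 and 10 µM of the ROCK inhibitor Y27632. M plate cells had the same medium on well plates, and P plate cells grew on well plates in P medium, which is DMEM with 10% FBS. Strips of native muscle, the study's positive control, carry the same day 28 and source name in their labels as the cultures. No group carries a transgene or a deletion according to the labels, and the ages of the animals are not analysed here. Both M groups share the Noggin, R-spondin1 and Y27632 additions, so the comparison of M with P medium on plates covers all of these differences at once.

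Where cells of several kinds are measured together, fewer cells of a kind and less RNA per cell cannot be told apart. Marker genes of smooth muscle (6 genes) summed to 3090 to 9910 CPM in M scaffold, 2600 to 4880 CPM in M plate, 4900 to 10500 CPM in P plate, and 33000 to 34300 CPM in strips, where CPM stands for counts scaled to library size. The 12 macrophage markers summed to 1990 to 4310 CPM in M scaffold, to 4200 to 4960 CPM in M plate, and to 22100, 4250 and 2440 CPM in P plate replicates 1 to 3, against 166 to 235 CPM in strips. P plate replicate 1 thus stood apart from its group. The 12 endothelial markers summed to 3100, 2150 and 391 CPM in M scaffold replicates 1 to 3, which sets replicate 3 apart, and to 4120 to 5420 CPM in M plate, 31.8 to 57.8 CPM in P plate, and 144 to 271 CPM in strips. Of the defining T cell genes, Cd3d, Cd3e, Cd3g and Cd8a had under 10 counts in every library. The sum of the T cell list in M plate, between 36.4 and 80.1 CPM, came almost wholly from Cd4, which was at 79.7, 51.5 and 36.1 CPM there. Gene counts ranged from 21396485 to 116643512 per library, and a count of 0 allows up to 0.027 to 0.125 CPM, which covers counting error only.

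Shown here are the 250 bases before the start sites of some genes that differed between the media and had a RefSeq entry (RefSeq, GRCm38.p6, 5′ to 3′ on the strand of the gene). They were not picked by size of change alone: Tnfsf10, whose change was among the largest, and other genes with an entry are left out. Capitals mark 3 letter patterns searched on both strands: the AP-1 motif TGANTCA, the kappaB motif (GGG and TTTCC with any 2 bases between them) and the TATA motif TATAAA. Tnfrsf9 codes for CD137, a costimulatory receptor of T cells, and its window at a start site inside the annotated gene (chr4:150927749-150927998, plus strand) held a kappaB match that begins 43 bases and an AP-1 match that begins 15 bases before the start. Tnfrsf23, which codes for a mouse decoy receptor of the ligand TRAIL (chr7:143685876-143686125, minus strand), and Tnfsf18, which codes for the ligand of GITR (chr1:161494407-161494656, plus strand), each held a TATA match, at 158 and 34 bases. Tnfrsf8, which codes for CD30 (chr4:145315165-145315414, minus strand), held an AP-1 match at 132 bases, and Tnfrsf12a, which codes for Fn14 (chr17:23677450-23677699, minus strand), held none of the 3.
Tnfrsf9: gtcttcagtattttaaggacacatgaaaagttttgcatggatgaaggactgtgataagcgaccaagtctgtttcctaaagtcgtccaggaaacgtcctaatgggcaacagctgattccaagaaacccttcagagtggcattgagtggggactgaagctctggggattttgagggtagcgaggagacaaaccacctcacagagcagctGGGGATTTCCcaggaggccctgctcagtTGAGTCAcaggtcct
Tnfrsf23: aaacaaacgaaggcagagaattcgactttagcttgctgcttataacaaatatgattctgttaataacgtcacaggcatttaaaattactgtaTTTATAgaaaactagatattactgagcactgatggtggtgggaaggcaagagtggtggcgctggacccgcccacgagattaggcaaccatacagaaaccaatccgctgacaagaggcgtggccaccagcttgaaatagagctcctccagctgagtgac
Tnfrsf12a: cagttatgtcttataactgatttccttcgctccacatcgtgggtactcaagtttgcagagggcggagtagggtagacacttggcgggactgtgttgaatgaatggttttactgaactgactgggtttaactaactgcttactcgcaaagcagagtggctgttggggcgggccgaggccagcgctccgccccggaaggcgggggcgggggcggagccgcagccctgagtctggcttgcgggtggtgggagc
Tnfsf18: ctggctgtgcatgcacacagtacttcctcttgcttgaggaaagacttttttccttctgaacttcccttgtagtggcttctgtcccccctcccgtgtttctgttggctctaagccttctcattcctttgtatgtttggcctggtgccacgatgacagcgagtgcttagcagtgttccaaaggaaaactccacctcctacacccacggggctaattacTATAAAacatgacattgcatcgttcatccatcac
Tnfrsf8: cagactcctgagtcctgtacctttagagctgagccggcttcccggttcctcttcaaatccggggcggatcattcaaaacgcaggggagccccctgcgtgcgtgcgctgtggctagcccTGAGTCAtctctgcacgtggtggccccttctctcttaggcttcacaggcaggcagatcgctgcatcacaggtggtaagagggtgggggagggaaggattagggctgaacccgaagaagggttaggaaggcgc

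Of the 44 members, 33 matched a RefSeq entry, with 37 windows. AP-1 matches stood in 6 of these 37 windows, kappaB matches in 3 and TATA matches in 6. Over all 32851 windows of the genome's genes the shares were 6.75%, 1.41% and 12.4%. A second Tnfrsf9 window, at a start site further upstream, held none of the 3 patterns. A match describes the letters only.

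Counts of some members are uncertain because their sequences overlap. Tnfrsf22 and Tnfrsf23 share 17.3% and 18% of their 50-base stretches with each other, while Tnfrsf26, their neighbour on chromosome 7, shares none with either. Tnfsf12 and Tnfsf13 share 46.8% and 57.3% with Tnfsfm13, a gene that joins both. Tnfsf13os lies opposite Tnfsf13, and with both strands counted 6.42% of the Tnfsf13 stretches and 9.49% of the Tnfsf13os stretches are shared between them. Since the sources used here do not give the strand setting of the counting, reads of these shared stretches cannot be told apart.

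Receptor transcripts stood well above ligand transcripts in every group. Per length, in TPM (transcript counts per length, scaled to the same total in each library), ligand genes summed to 117 to 228 TPM in M scaffold, 181 to 202 TPM in M plate, 171 to 302 TPM in P plate and 62.7 to 71.7 TPM in strips. Receptor genes summed to 1250 to 1290 TPM in M scaffold, 1180 to 1290 TPM in M plate, 1410 to 1760 TPM in P plate and 962 to 1050 TPM in strips. Tnfrsf1a, which codes for the widely expressed TNF receptor with a death domain, led the order in all 3 cultures, with a level of 452 ± 39.9 TPM (SD, n = 3, as for all following means) in M scaffold, 404 ± 30.8 TPM in M plate and 455 ± 63.8 TPM in P plate. Ltbr, the lymphotoxin beta receptor gene, came second in both M groups at 255 ± 29.0 TPM in M scaffold and 253 ± 9.44 TPM in M plate, above Tnfrsf1b, the gene of the other TNF receptor, at 210 ± 37.6 and 195 ± 38.7 TPM in the same groups. In M scaffold the spreads of Ltbr and Tnfrsf1b overlapped. In P plate Tnfrsf12a was second at 343 ± 127 TPM and varied widely: it was at 202, 378 and 448 TPM in replicates 1 to 3, below Tnfrsf1a in each (385, 510 and 471 TPM), and on either side of Ltbr (212, 269 and 295 TPM). The strips had another order, led by Tnfrsf11b, which codes for the soluble decoy receptor osteoprotegerin, at 341 ± 21.2 TPM, followed by Ltbr at 272 ± 23.1 TPM and Tnfrsf1a at 183 ± 21.6 TPM. Among ligands the highest level in strips was that of Tnfsf12, which codes for TWEAK, at 47.3 ± 2.45 TPM, and it was at 54.6 ± 2.26 TPM in M scaffold, 50.8 ± 4.27 TPM in M plate and 55.8 ± 7.94 TPM in P plate. In P plate the levels of Tnfsf15, at 71.9 ± 39.3 TPM, and of Tnfsf9, at 57.8 ± 4 TPM, were as high.

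**Figure D1:**
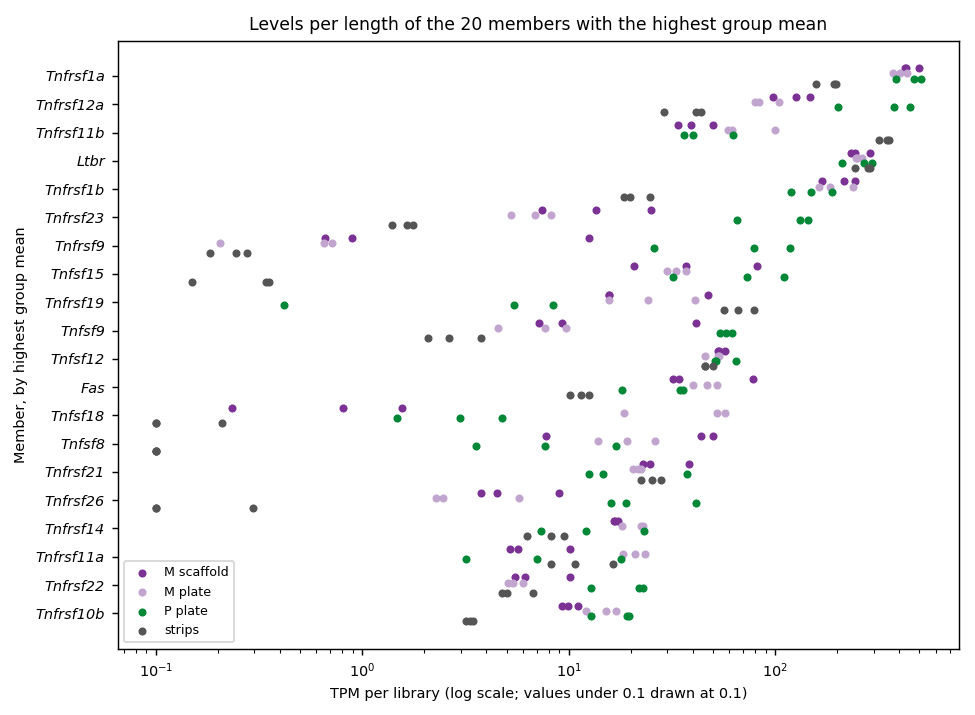
Level of the 20 members with the highest group mean in each library of M scaffold, M plate, P plate and strips, with TPM on a log axis, 1 point per library and values under 0.1 TPM drawn at 0.1. Tnfrsf1a averages 404 to 455 TPM in the cultures and 183 TPM in strips, where Tnfrsf11b is highest at 341 TPM.

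M plate was set against P plate to ask how the media changed the cells on well plates. The GITR ligand gene Tnfsf18, the CD30 gene Tnfrsf8 and the TRAIL gene Tnfsf10 were higher in M plate. The CD137 gene Tnfrsf9, its ligand gene Tnfsf9, the neighbouring receptor genes Tnfrsf22, Tnfrsf23 and Tnfrsf26 and the Fn14 gene Tnfrsf12a were lower. With edgeR's quasi-likelihood test and Benjamini-Hochberg adjustment over 17700 genes at 0.05, 7 of the 37 tested members were higher in M plate and 7 were lower, while 14.3% of all genes tested were higher and 10.6% lower. The members' median log2 fold change was 0.24, against -0.0044 over all genes.

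The CD137 receptor and ligand were both low in M plate. Tnfrsf9 (ENSMUSG00000028965, chromosome 4, 150914562 to 150946102, plus strand) was at 0.143, 0.507 and 0.472 CPM in M plate, against 97.3, 18.7 and 60.8 CPM in P plate. The groups did not overlap, although the P plate values spanned a wide range. Its log2 fold change was -7.25 ± 1.26 (SE; edgeR adjusted p = 0.00229). Tnfsf9 (ENSMUSG00000035678, chromosome 17, 57105325 to 57107757, plus strand), which codes for the ligand of CD137, was at 1.52, 2.59 and 3.32 CPM in M plate, against 24.2, 18.3 and 20.9 CPM in P plate. All P plate libraries were close together and far above the M plate libraries. The log2 fold change was -3.09 ± 0.63 (edgeR adjusted p = 0.00568).

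Tnfrsf22, Tnfrsf23 and Tnfrsf26 lie side by side on chromosome 7, with 6.08 kb between Tnfrsf26 and Tnfrsf22 and 16.1 kb between Tnfrsf22 and Tnfrsf23. Tnfrsf22 and Tnfrsf23 code for decoy receptors of TRAIL in the mouse. Tnfrsf23 (143665809 to 143685872, minus strand) was at 5.38, 7.13 and 8.66 CPM in M plate, against 78.3, 137 and 162 CPM in P plate (log2 fold change -4.15 ± 0.45; edgeR adjusted p = 0.000142). Tnfrsf26 (143607659 to 143628722, minus strand) was at 1.89, 2.08 and 4.90 CPM in M plate, against 40.3, 13.6 and 17.1 CPM in P plate (log2 fold change -2.99 ± 0.73; edgeR adjusted p = 0.0139). Neither gene's groups overlapped, and the P plate library that was lowest for Tnfrsf23 was highest for Tnfrsf26. Tnfrsf22 (143634806 to 143649661, minus strand) was at 5.53, 6.62 and 5.99 CPM in M plate, against 16.3, 25.3 and 25.9 CPM in P plate (log2 fold change -1.90 ± 0.24; edgeR adjusted p = 0.000399). TRAIL itself went the other way. Tnfsf10 (ENSMUSG00000039304, chromosome 3, 27317028 to 27342427, plus strand) was at 6.64, 6.39 and 4.48 CPM in M plate, against 0.547, 0 and 0 CPM in P plate (log2 fold change 4.92 ± 1.14; edgeR adjusted p = 0.0110). Only P plate replicate 1 had counts of it, so the size of that fold change rests on 1 library. The gene of the signalling TRAIL receptor, Tnfrsf10b, was at 23.8, 21.7 and 17.5 CPM in M plate and 31.5, 18.6 and 29.9 CPM in P plate, with overlapping groups and no call with all libraries. Over the fits without 1 library its log2 fold change ranged from -0.55 to -0.20, with an edgeR adjusted p from 0.0176 to 0.481.

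Tnfrsf12a (ENSMUSG00000023905, chromosome 17, 23675445 to 23677468, minus strand), whose product Fn14 binds TWEAK, was at 51.8, 40.2 and 42.8 CPM in M plate, against 118, 192 and 244 CPM in P plate. All M plate libraries lay below all P plate libraries. The log2 fold change was -2.04 ± 0.28 (edgeR adjusted p = 0.000641). The TWEAK gene Tnfsf12 was at 20.7, 18.2 and 21.5 CPM in M plate, against 29.8, 20.3 and 22 CPM in P plate, and was not called (log2 fold change -0.26 ± 0.15).

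Tnfsf18 (ENSMUSG00000066755, chromosome 1, 161494655 to 161505290, plus strand) was at 30.4, 28.3 and 10.1 CPM in M plate, against 1.86, 0.799 and 2.77 CPM in P plate. All M plate libraries lay above all P plate libraries, although M plate replicate 3 was well below the other two. The log2 fold change was 3.66 ± 0.68 (edgeR adjusted p = 0.00336). Its receptor gene Tnfrsf18 was at 2.00, 1.65 and 1.60 CPM in M plate and 1.23, 1.63 and 1.12 CPM in P plate, with no call. GITR ligand is known from endothelium and antigen-presenting cells, and the endothelial markers moved the same way: 11 of 12 rose in M plate, with a median log2 fold change of 7.98. Their part in the difference of Tnfsf18 was not tested.

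The CD30 pair also changed on 1 side. Tnfrsf8 (ENSMUSG00000028602, chromosome 4, 145267137 to 145315164, minus strand) was at 6.24, 7.10 and 6.71 CPM in M plate, against 0.219, 0.277 and 0.191 CPM in P plate. Both groups were tight. The log2 fold change was 4.85 ± 0.74 (edgeR adjusted p = 0.00112). The CD30 ligand gene Tnfsf8 was at 13.6, 19.1 and 26.3 CPM in M plate and 19.4, 3.56 and 8.19 CPM in P plate, which overlap, and was not called. Across the M scaffold libraries Tnfrsf8 was at 3.10, 3.57 and 0.514 CPM, beside endothelial sums of 3100, 2150 and 391 CPM, and their part in its level was not tested. Tnfrsf19, which codes for TROY, a receptor without a known TNF-type ligand, was at 49.8, 29.8 and 19.7 CPM in M plate, against 0.602, 10.4 and 7.27 CPM in P plate (log2 fold change 2.44 ± 0.77; edgeR adjusted p = 0.0419).

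The remaining calls were of genes that averaged under 10 CPM in both groups, as Tnfrsf8 and Tnfsf10 also did. Tnfsf13b, which codes for BAFF, averaged 8.63 ± 0.483 CPM in M plate, against 3.24 ± 1.5 CPM in P plate, and Cd27, the receptor of Cd70, averaged 0.523 ± 0.113 and 0.0801 ± 0.0484 CPM in the same groups. Tnfsf11, which codes for RANKL, averaged 0.522 ± 0.330 CPM in M plate, against 0.117 ± 0.0505 CPM in P plate, and Tnfsf14, which codes for LIGHT, averaged 0.315 ± 0.149 and 1.85 ± 1.98 CPM. Cd27, Tnfrsf19, Tnfrsf26, Tnfsf11, Tnfsf13b and Tnfsf14 each lost the call when some single library was left out, Cd27 only without M plate replicate 1 (edgeR adjusted p = 0.0501). Tnfrsf26 lost it without M plate replicate 1 or 2 (0.0647 and 0.0623) and had a log2 fold change of -2.36 without P plate replicate 1. Tnfrsf19 lost it without any 1 of the M plate replicates or without P plate replicate 3, and Tnfsf13b likewise, and also without P plate replicate 1. Tnfsf11 kept it only without M plate replicate 1. Tnfsf14 lost it without any 1 of the M plate replicates or without P plate replicate 1, which left a log2 fold change of -1.11. The other 8 calls held in every such fit.

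P plate replicate 1, with its macrophage sum of 22100 CPM, decided whether several more members were called. In that library Tnf was at 14.3 CPM, against 4.21 and 2.14 CPM in replicates 2 and 3, Cd40 at 9.08 against 2.12 and 1.18 CPM, Tnfrsf11a at 32.6 against 11.1 and 5.35 CPM and Tnfrsf13b at 13.7 against 3.50 and 1.08 CPM. These code for TNF, for the receptor of CD40 ligand, for RANK and for TACI, a receptor of BAFF and APRIL. It was the highest of its group for all 4. In M plate, beside macrophage sums of 4200 to 4960 CPM, Cd40 averaged 14.8 CPM and Tnfrsf11a 32.7 CPM, while Tnf averaged 4.58 CPM and Tnfrsf13b 6.02 CPM. P plate replicate 1 was also the highest of its group for other members, among them Tnfrsf9, Tnfrsf1b, Tnfsf8 and Tnfsf15. For others, among them Tnfrsf12a and Tnfrsf23, it was the lowest. The library also stood apart in other lists: its 5 mesothelium markers summed to 296 CPM, against 2950 and 2250 CPM in replicates 2 and 3. Its 8 epithelium markers summed to 44.8 CPM, against 263 and 356 CPM. It was the lowest of its group for Edar (0.137 against 2.77 and 1.31 CPM) and Tnfrsf19 (0.602 against 10.4 and 7.27 CPM). Without it 11 members were higher in M plate and 7 lower, while the calls over all genes went up as well, to 2975 higher and 2213 lower, against 2532 and 1868 with it. Cd40 (log2 fold change 3.16), Tnfrsf11a (1.99), Tnfrsf13b (1.39), Tnfrsf14 (1.07), Eda (1.02) and Tnfrsf21 (0.61) were then called higher and Edar (-2.05) lower, while Tnfsf11, Tnfsf13b and Tnfsf14 were no longer called and Tnf turned to 0.53 without a call. The part of the macrophage, mesothelium and epithelium markers in these values was not tested.

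**Figure D2:**
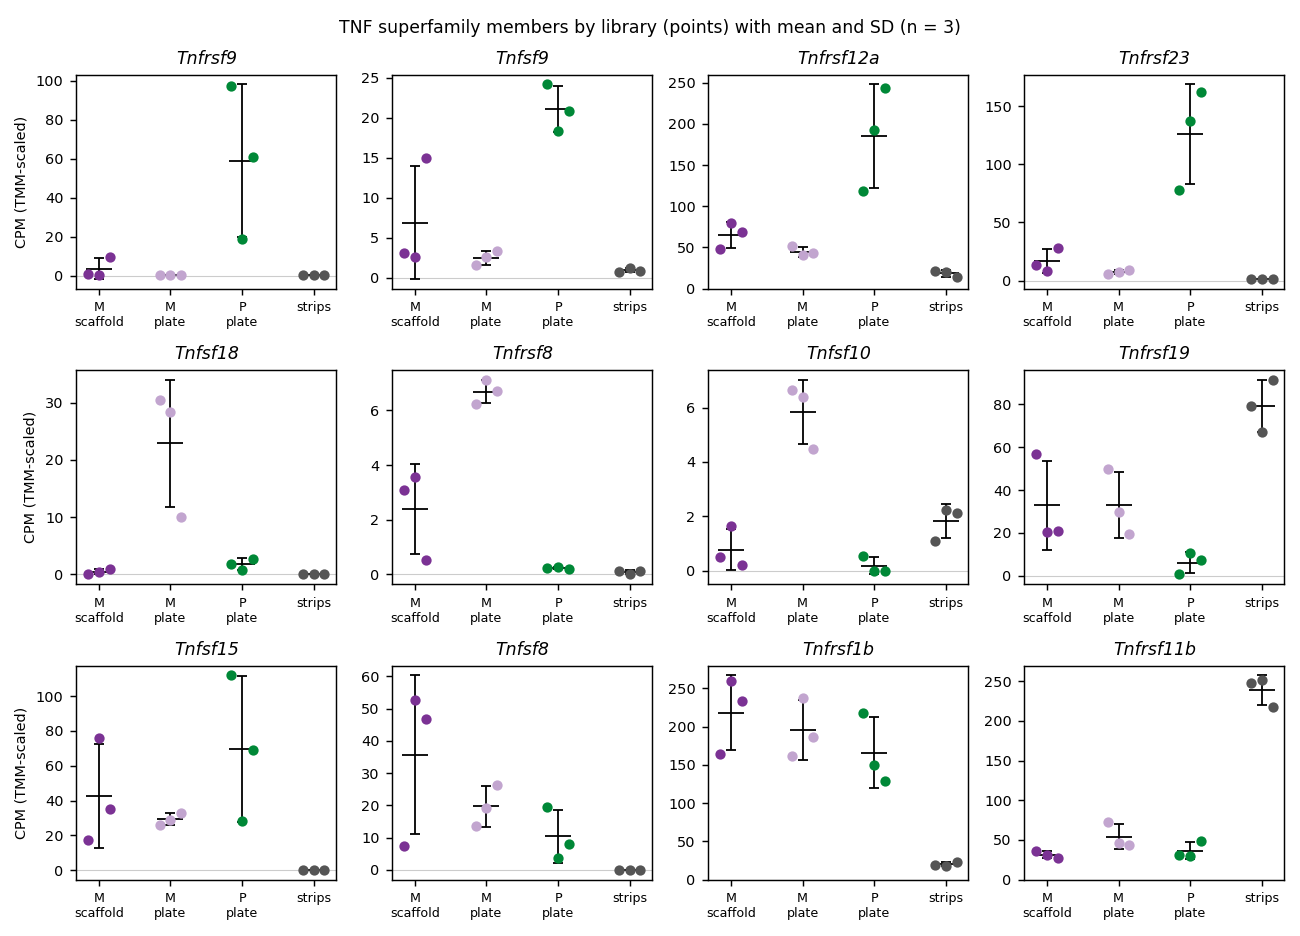
CPM of 12 members on linear axes in each library of M scaffold, M plate, P plate and strips, with 1 point per library and a bar at the mean with its SD (n = 3). Tnfrsf9, Tnfsf9 and Tnfrsf23 are highest in P plate, and Tnfsf18 is at 10.1 CPM or more in M plate and under 3 CPM in all other libraries.

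M scaffold was set against M plate to ask what the gelatin scaffold changed in the same medium. A single member was called. Tnfsf18 fell to 0.123, 0.466 and 0.901 CPM in M scaffold, against 30.4, 28.3 and 10.1 CPM in M plate. All M scaffold libraries were below 1 CPM. The log2 fold change was -5.41 ± 0.74 (edgeR adjusted p = 0.0102), and no member was called higher, while 1.53% of all genes tested were higher and 1.64% lower. The members' median log2 fold change was -0.01, against 0.01 over all genes. Without M scaffold replicate 3 the fall of Tnfsf18 was -6.27. At an unadjusted p under 0.05 by edgeR, 4 members were higher and 7 lower, beside 2037 and 1761 of the 17700 genes tested. With DESeq2 2 members were called higher and 4 lower, while 6.47% of all genes were called higher and 4.93% lower. Without M plate replicate 2 the fall of Tnfsf18 was of nearly the same size (-5.24) but was not called (edgeR adjusted p = 0.0533). Of the 12 endothelial markers, 0 were called higher and 1 lower on the scaffold, with a median log2 fold change of -1.1. They summed to 3100 CPM in M scaffold replicate 1, whose Tnfsf18 level, at only 4 counts, was the lowest of all cultures. In replicate 3, whose Tnfsf18 level was the highest of its group, they summed to 391 CPM. The part of the endothelial markers in this result was not tested.

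Among these 6 libraries those with the same replicate number deviated together, which alone does not show that they are pairs. With the number as a block within them, an alternative added after the data were seen, 6 members were called lower and none higher. Over all genes 4.81% were higher and 5.69% lower. The 6 were Tnfsf18 (-5.17), Tnfsf10 (-3.33), the death receptor gene Tnfrsf25 (-2.21), Tnfrsf11a (-1.57), Tnfrsf13b (-1.51) and Tnfrsf11b (-0.75). Without the block, Tnfsf10 was at 0.491, 1.65 and 0.198 CPM in M scaffold, against 6.64, 6.39 and 4.48 CPM in M plate, with no overlap and no call (log2 fold change -2.96 ± 1.00, edgeR adjusted p = 0.124). Tnfrsf25, which codes for DR3, the receptor of TL1A, was at 0.614, 0.559 and 0.928 CPM in M scaffold, against 2.61, 3.42 and 3.80 CPM in M plate (-2.20 ± 0.77, edgeR adjusted p = 0.135). Tnfrsf11a was at 15.4, 8.66 and 9.61 CPM in M scaffold, against 36.2, 32.9 and 29.0 CPM in M plate (-1.55 ± 0.54, edgeR adjusted p = 0.137). All 3 genes were lower in every M scaffold library than in any M plate library, as were Tnfrsf13b and Tnfrsf11b. The same held for Tnfrsf10b and Tnfrsf8, which were not among the 6, while Tnfrsf21 was higher in every M scaffold library. How many of all genes were separated in this way, with 3 libraries a group, was not counted.

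M scaffold replicate 3 stood apart for the CD137 pair. Tnfrsf9 was at 9.66 CPM in it, against 0.614 and 0.497 CPM in M scaffold replicates 1 and 2, and at 0.143 to 0.507 CPM in M plate. Tnfsf9 was at 15 CPM in the same library, against 3.04 and 2.58 CPM in the other replicates and 1.52 to 3.32 CPM in M plate. Both genes were thus high together in 1 library, which was also the most deeply sequenced. Without it the log2 fold changes of M scaffold against M plate were 0.53 for Tnfrsf9 and 0.18 for Tnfsf9. The same library had Tnfrsf18 at 1.91 CPM, against 0.307 and 0.466 CPM in replicates 1 and 2, and without it Tnfrsf18 was called lower on the scaffold (-2.17, edgeR adjusted p = 0.0257).

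**Figure D3:**
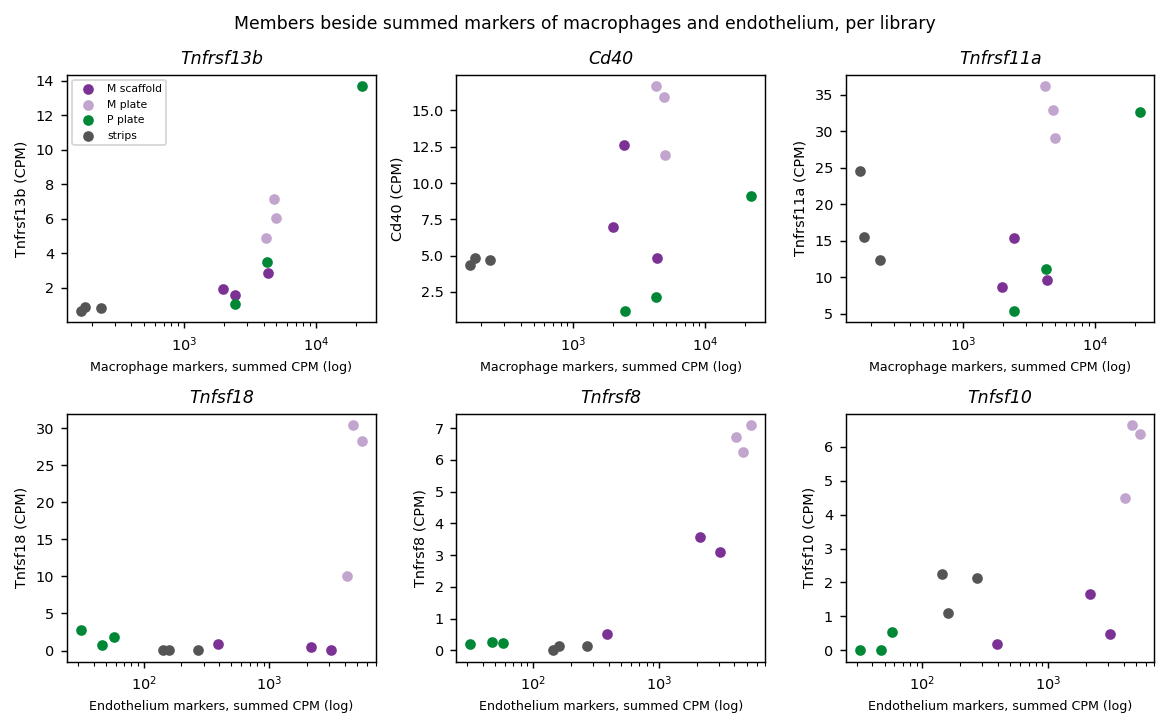
CPM of 6 members in each library (linear axis) against the summed CPM of the macrophage markers (upper row) or the endothelial markers (lower row, both on log axes), with 1 point per library coloured by group. M plate libraries combine the highest endothelial sums (4120 to 5420 CPM) with Tnfsf18 at 10.1 to 30.4 CPM, and P plate replicate 1 has the highest macrophage sum (22100 CPM).

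The comparisons of each culture with strips ask how the cultured cells differ from native muscle. They share the strips, so their values are set side by side and are not independent. Of the 37 members 20 were higher and 2 lower in M scaffold, 20 were higher and 3 lower in M plate, and 20 were higher and 4 lower in P plate, each against strips. Over all genes tested 24.5% were higher and 27.6% lower in M scaffold, 26.5% and 28.4% in M plate, and 30.5% and 32.7% in P plate. The members' median log2 fold change was 1.38 in M scaffold, 1.47 in M plate and 1.15 in P plate, against -0.02, -0.01 and -0.03 over all genes. Macrophage markers rose as well, in 11 of 12 genes in M scaffold, 12 of 12 in M plate and 12 of 12 in P plate, with medians of 3.89, 4.85 and 5.51. Fibroblast markers rose in 5 of 6 genes in each culture, with medians of 2.06, 1.83 and 1.09. Of the 12 endothelial markers 9 rose and 2 fell in M scaffold, 10 rose and 1 fell in M plate, and 8 fell in P plate. Smooth muscle markers fell in 4, 6 and 4 of 6 genes. The part of all these markers in the members' rise was not tested.

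The 2 neighbouring ligand genes on chromosome 4, Tnfsf15 and Tnfsf8, 86.2 kb apart, had among the largest differences. Tnfsf15 (ENSMUSG00000050395, 63727084 to 63745113, minus strand), which codes for TL1A, was at 17.5, 75.9 and 35.2 CPM in M scaffold, 25.9, 29.1 and 32.8 CPM in M plate and 112, 28.1 and 69.0 CPM in P plate, against 0.301, 0.125 and 0.278 CPM in strips. Every culture library lay far above every strip. Its log2 fold changes against strips were 7.40 ± 0.75 in M scaffold, 6.85 ± 0.74 in M plate and 8.10 ± 0.77 in P plate (edgeR adjusted p = 5.38e-05, 5.13e-05 and 1.06e-05). Tnfsf8 (ENSMUSG00000028362, 63831308 to 63861347, minus strand) was at 7.46, 52.7 and 46.9 CPM in M scaffold, 13.6, 19.1 and 26.3 CPM in M plate and 19.4, 3.56 and 8.19 CPM in P plate, against 0.0547, 0 and 0.0348 CPM in strips. Strips held only a few counts of it, so its log2 fold changes of 9.93 ± 1.17, 9.08 ± 1.16 and 8.16 ± 1.15 depend on very small values. Leaving out M scaffold replicate 2 gave 6.69 for Tnfsf15 in M scaffold, and leaving out P plate replicate 1 gave 7.29 for Tnfsf8 in P plate. The receptor of TL1A did not follow: Tnfrsf25 was called in none of the 3 comparisons by edgeR, at log2 fold changes of -1.83 ± 0.76, 0.37 ± 0.72 and -0.69 ± 0.74.

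The TNF gene and both of its receptor genes were higher in all 3 cultures than in strips. Tnf (ENSMUSG00000024401, chromosome 17, 35199381 to 35202007, minus strand) was at 1.01, 4.81 and 3.47 CPM in M scaffold, 2.12, 7.36 and 4.28 CPM in M plate and 14.3, 4.21 and 2.14 CPM in P plate, against 0.109, 0 and 0.0464 CPM in strips. Its log2 fold changes were 5.75 ± 1.08 in M scaffold, 6.32 ± 1.09 in M plate and 6.90 ± 1.10 in P plate (edgeR adjusted p = 0.00148, 0.00075 and 0.000326), with 5.75 in P plate when its replicate 1 was left out. Without strips replicate 1 they were 6.39, 6.94 and 7.53. Tnfrsf1b (ENSMUSG00000028599, chromosome 4, 145213463 to 145246870, minus strand) was at 164, 259 and 233 CPM in M scaffold, 161, 238 and 187 CPM in M plate and 218, 150 and 129 CPM in P plate, against 19.2, 17.7 and 22.9 CPM in strips. The lowest culture library was well above the highest strip. The log2 fold changes were 3.45 ± 0.26, 3.29 ± 0.25 and 3.05 ± 0.25 in the same order (edgeR adjusted p = 1.22e-05, 9.72e-06 and 4.59e-06). Tnfrsf1a averaged 318 ± 41.7 CPM in M scaffold, 274 ± 22.9 CPM in M plate and 331 ± 25.2 in P plate, against 118 ± 12.4 CPM in strips, with log2 fold changes of 1.43 ± 0.13, 1.22 ± 0.13 and 1.49 ± 0.13. Ltbr, by contrast, stayed between 146 and 195 CPM in all 12 libraries and was called in no comparison.

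The death receptor genes Fas and Tnfrsf10b rose in all 3 cultures. Fas (ENSMUSG00000024778, chromosome 19, 34290666 to 34327772, plus strand) averaged 27.1 ± 15.3 CPM in M scaffold, 25 ± 3.24 CPM in M plate and 16.9 ± 4.94 in P plate, against 5.84 ± 0.578 CPM in strips, with log2 fold changes of 2.21 ± 0.36, 2.10 ± 0.36 and 1.54 ± 0.35. Tnfrsf10b averaged 14.9 ± 0.750 CPM in M scaffold, 21 ± 3.22 CPM in M plate and 26.7 ± 7.06 in P plate, against 4.49 ± 0.232 CPM in strips, with log2 fold changes of 1.73 ± 0.20, 2.22 ± 0.20 and 2.57 ± 0.20. Neither ligand gene was called higher in any culture. Fasl was not read, and Tnfsf10 averaged 0.778 ± 0.765 CPM in M scaffold, 5.84 ± 1.18 CPM in M plate and 0.182 ± 0.316 in P plate, against 1.83 ± 0.639 CPM in strips. Every M plate library lay above every strip for Tnfsf10, but without a call (1.67 ± 0.93, edgeR adjusted p = 0.152). It was not called in M scaffold either, and was called lower in P plate (-3.24 ± 1.10, edgeR adjusted p = 0.0249). That call was lost without P plate replicate 2 or 3, or without strips replicate 2 or 3.

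Tnfrsf12a rose in all 3 cultures, with log2 fold changes of 1.83 ± 0.28 in M scaffold, 1.29 ± 0.28 in M plate and 3.33 ± 0.30 in P plate, against strips at 21.6, 19.9 and 13.7 CPM. Tnfrsf23, at 1.40, 1.62 and 1.69 CPM in strips, had log2 fold changes of 3.4 ± 0.45 (2.80 without M scaffold replicate 3), 2.16 ± 0.44 and 6.32 ± 0.51. Tnfrsf26 had counts in 1 of 3 strips only (0, 0 and 0.232 CPM) and 3.35 to 8.12 CPM in M scaffold, 1.89 to 4.90 CPM in M plate and 13.6 to 40.3 CPM in P plate. Its log2 fold changes of 5.45 ± 0.91, 4.68 ± 0.90 and 7.66 ± 0.97 therefore rest on that 1 strip. Tnfrsf22 was called in P plate alone (1.96 ± 0.25).

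BAFF and APRIL genes rose as well. Tnfsf13b averaged 9.44 ± 4.84 CPM in M scaffold, 8.63 ± 0.483 CPM in M plate and 3.24 ± 1.5 in P plate, against 1.05 ± 0.156 CPM in strips, with log2 fold changes of 3.15 ± 0.42, 3.02 ± 0.42 and 1.61 ± 0.41. Tnfsf13, which codes for APRIL and shares its sequence with Tnfsfm13, had log2 fold changes of 1.19 ± 0.33, 1.33 ± 0.33 and 1.18 ± 0.33. Tnfrsf13b, the TACI gene, rose in M plate (2.88 ± 0.73) and P plate (2.90 ± 0.73, and 1.45 without P plate replicate 1). In M scaffold it was at 1.38 ± 0.70 without a call. Tnfrsf14, which codes for HVEM, the receptor of LIGHT, rose to 6.59 ± 0.499 CPM in M scaffold, 7.94 ± 0.917 CPM in M plate and 5.88 ± 3.72 in P plate, against 2.86 ± 0.516 CPM in strips. The P plate call was lost without P plate replicate 1, at a log2 fold change of 0.37, and also without strips replicate 1 or 2. The M scaffold call was lost without M scaffold replicate 2 or strips replicate 1. The CD137 pair was higher in P plate (Tnfrsf9 8.48 ± 1.37, Tnfsf9 4.57 ± 0.69) and M scaffold (4.50 ± 1.25 and 2.96 ± 0.65). In M scaffold the Tnfrsf9 call was lost without replicate 3, at 1.76, and Tnfsf9 was then still called, at 1.66.

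The osteoprotegerin gene went the other way. Tnfrsf11b (ENSMUSG00000063727, chromosome 15, 54250619 to 54278484, minus strand), which codes for the decoy receptor of RANKL, was at 35.8, 30.7 and 27.0 CPM in M scaffold, 72.3, 45.6 and 44.1 CPM in M plate and 30.7, 29.8 and 49.3 CPM in P plate, against 248, 252 and 218 CPM in strips. All culture libraries lay below all strips. The log2 fold changes were -2.94 ± 0.25, -2.15 ± 0.24 and -2.71 ± 0.25 (edgeR adjusted p = 2.38e-05, 6.32e-05 and 8.47e-06). RANK, coded by Tnfrsf11a, was at 11.2 ± 3.64 CPM in M scaffold, 32.7 ± 3.58 CPM in M plate and 16.3 ± 14.3 in P plate, against 17.5 ± 6.25 CPM in strips, and was called in none of the 3. Without P plate replicate 1 it was lower in P plate (-1.12, edgeR adjusted p = 0.0262). RANKL, coded by Tnfsf11, was called higher in M scaffold only (2.01 ± 0.59), a call lost without M scaffold replicate 3 or without strips replicate 1 or 3.

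Some further members had calls against strips. Tnfsf18 was at 0.109, 0.0417 and 0.0232 CPM in strips and had log2 fold changes of 3.33 ± 0.94 in M scaffold, 8.75 ± 0.95 in M plate and 5.08 ± 0.92 in P plate, of which the first was lost without M scaffold replicate 3 or strips replicate 3. Tnfrsf8 was higher in M scaffold (4.50 ± 0.77) and M plate (6 ± 0.80), with 0.137, 0 and 0.127 CPM in strips. Cd27 was higher in M scaffold (2.22 ± 0.72) and M plate (3.27 ± 0.69), and its M scaffold call was lost without M scaffold replicate 1 or strips replicate 2 or 3. Tnfsf14 was higher in P plate (4.75 ± 0.99, and 3.33 without P plate replicate 1). Cd40 (1.68 ± 0.62) and Ltb (1.59 ± 0.57), which codes for lymphotoxin beta, were called higher in M plate alone. Cd40 lost its call without any 1 of the 6 libraries, and Ltb lost its call without any of them but M plate replicate 1. Tnfsf12 was called higher in P plate (0.43 ± 0.15), a call lost without P plate replicate 1 or any 1 of the strips. The antisense gene Tnfsf13os was called higher in M scaffold (0.97 ± 0.37) and M plate (1.05 ± 0.37), and kept the call only when strips replicate 2 was left out. Tnfrsf4 and Tnfrsf18, which code for the T cell receptors OX40 and GITR, Tnfrsf21, which codes for the death receptor DR6, Tnfrsf25, Tnfrsf11a and Ltbr were called in none of the 5 comparisons in the main edgeR fit. DESeq2 called Tnfrsf25 (-2.20) and Tnfrsf11a (-1.53) lower on the scaffold against M plate. Without P plate replicate 1, Tnfrsf21 (-0.80) and Cd40 (-1.52) were called lower and Tnfrsf4 (0.73) higher in P plate than in strips, and without M scaffold replicate 3, Tnfrsf18 was called lower in M scaffold than in strips (-2.08).

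The ectodysplasin pair, known from hair and tooth development, was also lower in several cultures. Eda was at 9.64, 10.4 and 13.5 CPM in M scaffold, 9.68, 5.91 and 6.21 CPM in M plate and 5.77, 3.04 and 4.14 CPM in P plate, against 10.8, 13.7 and 15.7 CPM in strips. It fell in M plate (-0.89 ± 0.27) and P plate (-1.63 ± 0.28) and was not called in M scaffold. Edar averaged 0.648 ± 0.407 CPM in M scaffold, 0.487 ± 0.0959 CPM in M plate and 1.40 ± 1.32 in P plate, against 4.07 ± 0.853 CPM in strips, and fell in the M groups (-2.68 ± 0.77 in M scaffold, -3.05 ± 0.78 in M plate). Tnfrsf19 fell in P plate (-3.70 ± 0.81). It was not called in M scaffold (-1.28 ± 0.73) or M plate (-1.26 ± 0.73). The M plate call of Eda was lost without M plate replicate 2 or 3 or strips replicate 3, and the M scaffold call of Edar without M scaffold replicate 3.

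**Figure D4:**
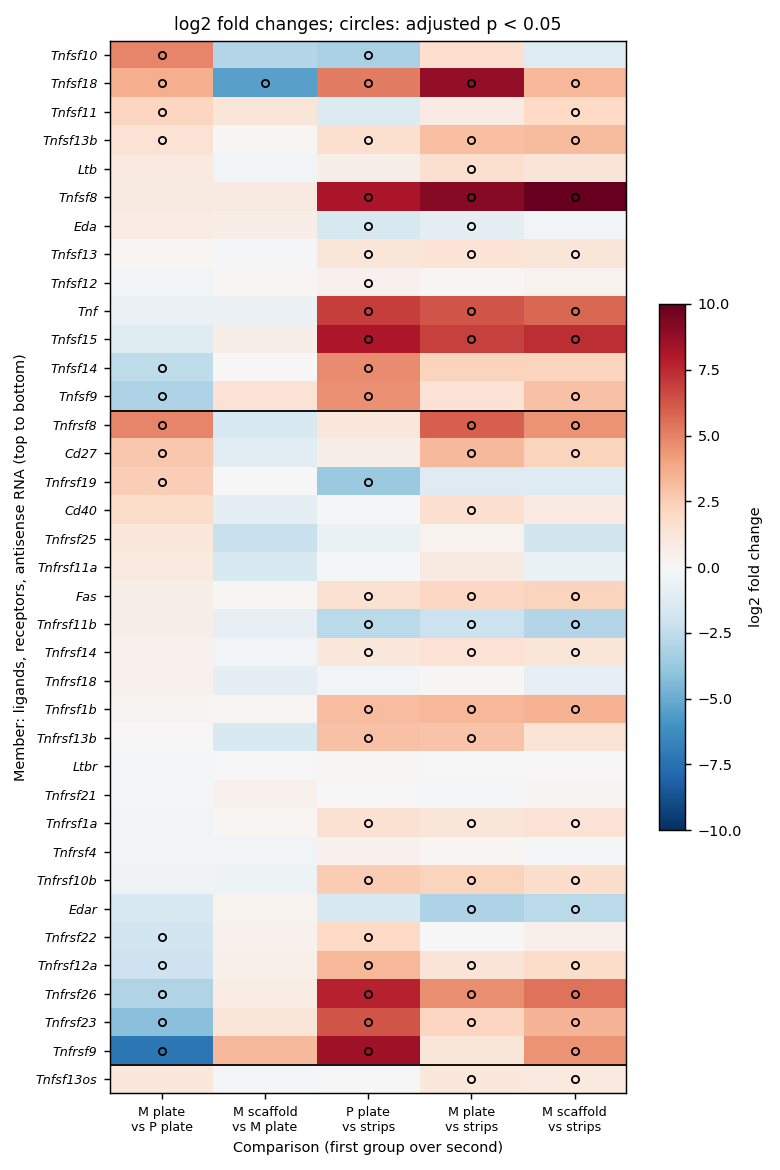
Heat map of the log2 fold changes of the 37 tested members (rows: ligands, receptors and the antisense RNA) in the 5 comparisons (columns), red where the group named first is higher and blue where it is lower, with a circle at each edgeR adjusted p under 0.05. Against strips 20 members are called higher in each culture, and on the scaffold against M plate Tnfsf18 is the single circle.

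Genes that act downstream of the receptors were mostly higher in the cultures than in strips. The shares of all genes tested that were higher there were 24.5% in M scaffold, 26.5% in M plate and 30.5% in P plate, and 27.6%, 28.4% and 32.7% were lower. Macrophage and fibroblast markers rose in the same comparisons, with the counts and medians given above, and their part in the values of these lists was not tested. Between the media 14.3% of all genes were higher in M plate and 10.6% lower, and on the scaffold 1.53% were higher and 1.64% lower. Of 19 genes of the NF-kB system, 16 rose in M scaffold, 15 in M plate and 17 in P plate, and none fell. Bcl3, which codes for a nuclear IkB protein, was at 48.8 ± 21.4 CPM in M scaffold, 34.8 ± 6.34 CPM in M plate and 63.7 ± 8.10 in P plate, against 3.26 ± 0.681 CPM in strips, with log2 fold changes of 3.92 ± 0.35, 3.43 ± 0.34 and 4.30 ± 0.35. Tnfaip3, which codes for the NF-kB inhibitor A20, was at 82.3 ± 68.9 CPM in M scaffold, 53.8 ± 18.4 CPM in M plate and 31.3 ± 6.07 in P plate, against 4.86 ± 0.829 CPM in strips. Of these 19 genes, 2 fell in M plate against P plate, Chuk (-0.42 ± 0.14) and Nfkbib (-0.37 ± 0.12), which code for IkB kinase alpha and IkB beta, and none was called on the scaffold.

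Of 24 tested genes known to be induced by TNF, 21 rose in each of the 3 cultures against strips and none fell, beside the 24.5% to 30.5% of all genes that rose there and the rise of the macrophage markers (medians 3.89, 4.85 and 5.51). The acute-phase gene Saa3 was at 9560 ± 3360 CPM in M scaffold, 9710 ± 3320 CPM in M plate and 3500 ± 2460 in P plate, against 6.23 ± 0.569 CPM in strips. Cxcl5, a neutrophil chemokine gene, was at 158 ± 149, 44.1 ± 18.8 and 21.6 ± 25.9 CPM in the same cultures, against 0.0644 ± 0.0207 CPM in strips. Between the media, 2 of the 24 rose in M plate and 4 fell, beside 14.3% and 10.6% of all genes. The chemokine gene Ccl5 (4.05 ± 1.01) and the complement gene C3 (2.24 ± 0.50) rose, while the cyclooxygenase gene Ptgs2 (-4.34 ± 0.46) and the collagenase gene Mmp13 (-3.21 ± 0.77) fell. On the scaffold Mmp13 rose to 45.9 ± 28.1 CPM, against 2.37 ± 0.538 CPM in M plate (4.27 ± 0.80), and Il1b fell (-2.93 ± 0.61).

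Of 21 adaptor and kinase genes, 13 rose in M scaffold, 11 in M plate and 12 in P plate against strips, and 0, 1 and 2 fell. Over all genes tested 24.5%, 26.5% and 30.5% rose in these comparisons and 27.6%, 28.4% and 32.7% fell. Ripk1, which codes for the kinase bound to death receptor complexes, had log2 fold changes of 1.14 ± 0.15, 1.18 ± 0.15 and 1.5 ± 0.16. Between the media 2 of the 21 rose in M plate and 2 fell, which is no more than the share over all genes. Map3k5, which codes for the stress kinase ASK1, rose in M plate to 82.1 ± 6.12 CPM, against 28.0 ± 7.77 CPM in P plate (1.55 ± 0.33), and Traf1 rose (1.21 ± 0.37), while Traf4 (-0.79 ± 0.19) and Tank (-0.71 ± 0.21) fell. Of 15 genes of apoptosis and necroptosis, 9 rose in M scaffold, 10 in M plate and 9 in P plate against strips, and 1, 2 and 3 fell. Ripk3 and Mlkl, the kinase and pore protein genes of necroptosis, were among the risen: Ripk3 was at 27.1 ± 5.21 CPM in M scaffold, 19.0 ± 4.83 CPM in M plate and 50.9 ± 13.5 in P plate, against 5.33 ± 0.466 CPM in strips. Diablo, which codes for a mitochondrial inhibitor of IAP proteins, fell in all 3 (-1.10 ± 0.13, -1.44 ± 0.13 and -1.35 ± 0.13). Between the media 2 of the 15 rose in M plate and 4 fell, beside 14.3% and 10.6% of all genes. Xiap (0.76 ± 0.17), which codes for a caspase inhibitor, was among those that rose, and Ripk3 (-1.42 ± 0.24) and Bax (-0.60 ± 0.17) were among those that fell.

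Superfamily genes outside the naming rule also differed. Ngfr, the p75 neurotrophin receptor gene, averaged 479 ± 185 CPM in M scaffold, 164 ± 43.1 CPM in M plate and 24.6 ± 8 in P plate, against 168 ± 39.0 CPM in strips. It rose in M plate against P plate (2.74 ± 0.36) and on the scaffold against M plate (1.54 ± 0.34, edgeR adjusted p = 0.0431). The 5 enteric glia markers summed to 225 to 530 CPM in M scaffold, 109 to 140 CPM in M plate, 15.1 to 31 CPM in P plate and 135 to 171 CPM in strips. Of these 5, 5 rose in M plate against P plate and 3 on the scaffold against M plate, and their part in the level of Ngfr was not tested. The ectodysplasin receptor gene Eda2r rose in all 3 cultures against strips (2.90 ± 0.37, 1.77 ± 0.36 and 3.02 ± 0.37) and fell in M plate against P plate (-1.25 ± 0.35). Adam17, which codes for the protease that sheds TNF, averaged 148 ± 17.4 CPM in M scaffold, 146 ± 15.1 CPM in M plate and 136 ± 32.2 in P plate, against 40.7 ± 3.01 CPM in strips, with log2 fold changes of 1.86 ± 0.17, 1.84 ± 0.17 and 1.74 ± 0.17.

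**Figure D5:**
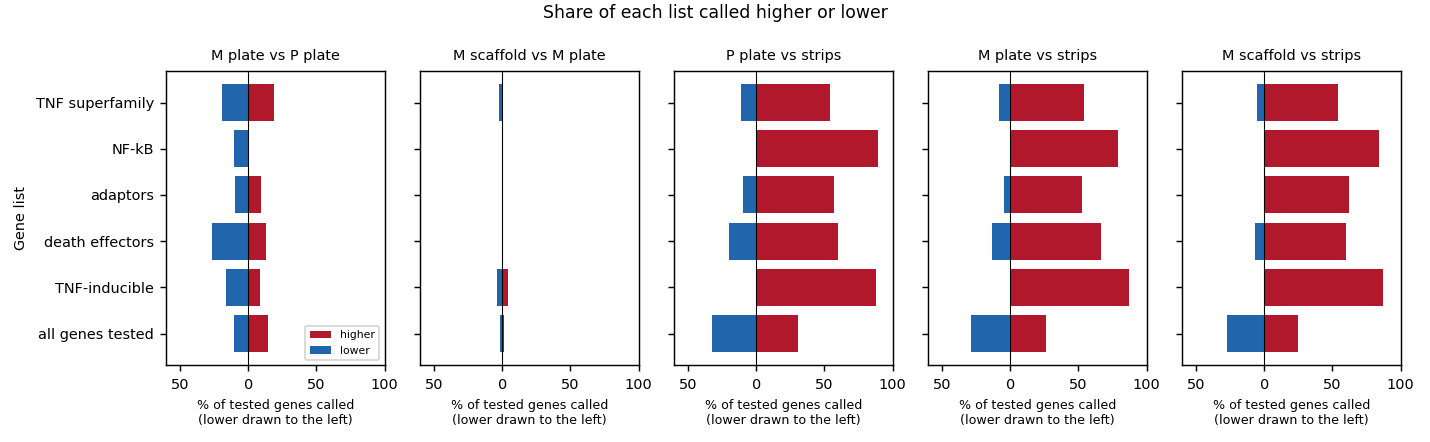
Percent of the tested genes of each list that were called higher (red, to the right) or lower (blue, to the left) by edgeR at an adjusted p under 0.05, in the 5 comparisons, for the TNF superfamily members, 4 downstream lists and all genes tested. Against strips 15 to 17 of the 19 NF-kB genes and 21 of the 24 tested TNF-inducible genes are higher, beside 24.5% to 30.5% of all genes.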

How the data were processed

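RNA-seq libraries were made with the TruSeq RNA v2 kit from 12 samples, per the labels' protocols. The authors deposited raw counts per Ensembl gene, 1 column per sample. STAR 2.6.0 and GRCm38 are named in the submitters' processing notes. The sources used here do not give the counter, its annotation or strand setting, nor how the 2 technical replicates named in the series text were joined. The 5 summary entries that name no gene were left out. Replicates are called biologically independent by the series text.

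From these counts, edgeR 4.0.16 in R 4.3.3 kept 17700 genes with filterByExpr, scaled libraries by TMM (factors 0.893 to 1.15) and fitted the quasi-likelihood model to all 12 libraries with a term for group alone (8 residual degrees of freedom). Standard errors come from the F statistic, and p-values were adjusted by the Benjamini-Hochberg method over all genes tested. A gene was called at an adjusted p under 0.05. TPM used GENCODE M21 exon lengths, and 52403 of 52550 identifiers matched a symbol there. The test was checked on simulated data in which each gene had the same spread in all groups. That check does not cover a library that stands apart from its group.

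The members, the gene lists and the tests were chosen with earlier results of these data known. Values per library are given for called members that average at least 10 CPM in the higher group without overlap (at most 4 rises and 4 falls per comparison) and for ligand and receptor pairs. From each downstream list the text takes up to 2 called rises and 2 falls per comparison. Some further members are given by means. One gene of these lists is not reported here.

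Samples with the same number in M scaffold and M plate deviated together (r = 0.196 to 0.304, against -0.228 to -0.0597 for different numbers). Deviations from a group's mean cancel within the group, so the negative values are not separate evidence. The numbers were treated as pairs in an alternative only, and pairing was not shown independently. No other pair of groups had r over 0.1 for every same number. Alternatives were RLE scaling, no filter, DESeq2 1.42.0, limma-voom (limma 3.58.1), a replicate block, fits of the compared groups alone and leaving out each library.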

Additional observations from a re-analysis of the deposited data

How the results depend on the processing

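Over the 5 comparisons 84 member calls were made. None reversed under any alternative. RLE scaling kept 84, DESeq2 84, no low-count filter 81, a replicate block in all 12 libraries 80, limma-voom 79, fits of the 2 compared groups alone 75 of the 81 that could be fitted, and leaving out each library in turn 63. RLE scaling moved the median of all genes by at most 0.02. Some uncalled members changed sign. In M plate against P plate, Tnf (main -0.58) ranged from -1.1 to 0.53 over the fits without 1 library, with 0.53 without P plate replicate 1, and Tnfrsf13b (main -0.02) was at 0.63 with limma-voom, 0.24 with the replicate block, and from -0.51 to 1.39 without 1 library, with 0.11 without M plate replicate 1 and 1.39 without P plate replicate 1. Without that library Tnfsf13 was at -0.11 (main 0.16) and Tnfrsf21 at 0.61 (main -0.14), and Tnfrsf19 on the scaffold against M plate was at 0.23 (main -0.01) without M scaffold replicate 3. The cause was not tested.

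Genes lower in M plate against P plate numbered 1868, 1187 without the filter and 1116 with the 2 groups alone. Genes higher and lower on the scaffold numbered 271 and 291, and 1146 and 873 with DESeq2, 459 and 545 with limma-voom, 455 and 613 with the 2 groups alone, 787 and 931 with the replicate block within these groups and 222 and 169 with it in all 12 libraries. Scaffold members called were 2 higher and 4 lower with DESeq2, 3 lower with limma-voom, 4 lower with the 2 groups alone, 6 lower with the replicate block within the 2 groups and 1 lower with it in all 12. Members lower in M scaffold against strips numbered 4 with the 2 groups alone, against 2 in the main fit, where 27.6% of all genes were lower. The fit of the 2 groups tested its own set of genes, and its share over all genes is not given here.

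Leaving out 1 library gave these ranges. M plate against P plate had 1818 to 2975 genes higher and 812 to 2213 lower, and 4 to 11 members higher and 5 to 9 lower. Without P plate replicate 2, 9 members were higher and 9 lower, beside 2630 and 2050 of all genes. Tnfsf15, Tnfrsf10b and Tnfrsf11b, uncalled with all libraries, were called in some such fit (lowest edgeR adjusted p = 0.034, 0.0176 and 0.0292). M scaffold against M plate had 7 to 225 higher and 11 to 131 lower, the lowest without M plate replicate 2, and 0 to 2 members lower. Members lower in P plate against strips numbered 3 to 7, beside 5441 to 6187 of all genes. In M plate against strips they numbered 2 to 3, beside 4422 to 4802 of all genes. In M scaffold against strips they numbered 2 to 3, beside 4324 to 4594 of all genes. The replicate block in all 12 libraries changed few calls: Tnfrsf19, Tnfsf11 and Tnfsf14 in M plate against P plate and Tnfrsf14 in P plate against strips were lost. Of the 12 libraries, 8 correlated best with one of their own number. Cd27, at under 1 CPM in every library, rests on few counts.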
